A study of Mus musculus with 16 samples.

Results

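Immune checkpoints are receptor and ligand pairs that restrain immune cells, and 9 genes of this kind were followed here: Pdcd1, Cd274, Pdcd1lg2, Ctla4, Lag3, Havcr2, Tigit, Cd200 and Cd200r1. They were taken by symbol, and each matched 1 of the 32285 genes counted in every library. The study treated mice carrying 2208L tumors, transplanted Trp53-null mammary tumors of the triple-negative type, with IACS-70654, an oral inhibitor of the bromodomain of the coactivators CBP and P300, and profiled single cells. 4 tumor libraries (sorted live cells from vehicle, IACS-70654, anti-PD1 and combination mice) and 12 bone marrow libraries were analysed. Marrow was sorted either as CD45+ Ter119- cells or as lineage-negative c-Kit+ progenitors, each with 2 libraries labelled ctrl, 2 labelled vehicle and 2 labelled IACS-70654.

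The hosts were wild-type BALB/c mice, and per the methods ctrl marrow came from mice without a tumor, whereas the vehicle and IACS-70654 marrow came from tumor-bearing mice. The study's figure legends call the mice without a tumor untreated. Vehicle and ctrl marrow thus differed by the tumor and by the vehicle dosing, which cannot be told apart. The series design gives 7 days of treatment, 3 days on and 2 days off, and cells of 3 mice pooled for each vehicle or IACS-70654 group. The methods likewise describe every sample as a pool of 3 mice, and the study's text gives a shorter course for the marrow mice. The anti-PD1 group received an antibody against PD-1, and the combination group received the antibody and IACS-70654. All tumors came from 1 transplantable line. Nothing in the labels or methods says that the 2 marrow libraries of a group came from separate pools of mice, so the p-values below measure the spread between libraries, which may be technical.

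PD-1, the product of Pdcd1, is induced on activated T cells and restrains signaling from the antigen receptor when it binds PD-L1 (Cd274) or PD-L2 (Pdcd1lg2). PD-L1 is made by many cell types and is a classical target of interferon gamma, and it is also found on tumor macrophages and neutrophils. CTLA-4, LAG-3, TIM-3 (Havcr2) and TIGIT are further inhibitory receptors, of which TIM-3 is also made by macrophages and dendritic cells. CD200 is a membrane protein of many non-myeloid cells, and its receptor CD200R1 sits mainly on myeloid cells and restrains them.

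Of 14506 tumor barcodes 13830 were kept, 1974 to 5064 per library, with median depths of 4724 to 6332 UMIs (unique molecular identifiers, 1 per captured transcript). The CD45+ marrow libraries held 31191 kept cells and the c-Kit+ libraries 28155. Libraries of a sort shared 0 barcodes. Cells were clustered without the 9 genes, and clusters were named "-like" from marker lists. A level below is a CPM value, the UMIs of the gene scaled to all UMIs of the cell class in that library (counts per 1000000). Each tumor condition had 1 library, so differences between tumor conditions have no replicate check and no test. Their 95% intervals (exact Poisson for a level, exact binomial for a ratio of 2 levels) cover counting error only.

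8 of the 9 genes fell into 3 patterns by the class that held their tumor UMIs. Depth per cell differed between classes (library medians of 1202 to 16118 UMIs), which the shares of cells do not allow for. A deep class can hold many UMIs at a low level, and levels are given below. Cd200 was an epithelial gene, with 94.7% of its 9798 UMIs in tumor epithelial-like cells, which were 21.4% of the cells. Macrophage-like cells, 41.7% of the cells, held 76.2% of the 1065 Lag3 UMIs, 63.8% of the 4974 Havcr2 UMIs, 50.3% of the 4961 Cd274 UMIs and 49.3% of the 1210 Cd200r1 UMIs. T or NK-like cells were 2.62% of the cells and held 68.8% of the 32 Tigit UMIs, 50.5% of the 186 Pdcd1 UMIs and 42.9% of the 1241 Ctla4 UMIs. Pdcd1lg2, with 242 UMIs, was spread over macrophage-like (31.4%), monocyte-like (18.6%), neutrophil-like (17.4%) and T or NK-like cells (11.2%).

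**Figure D1:**
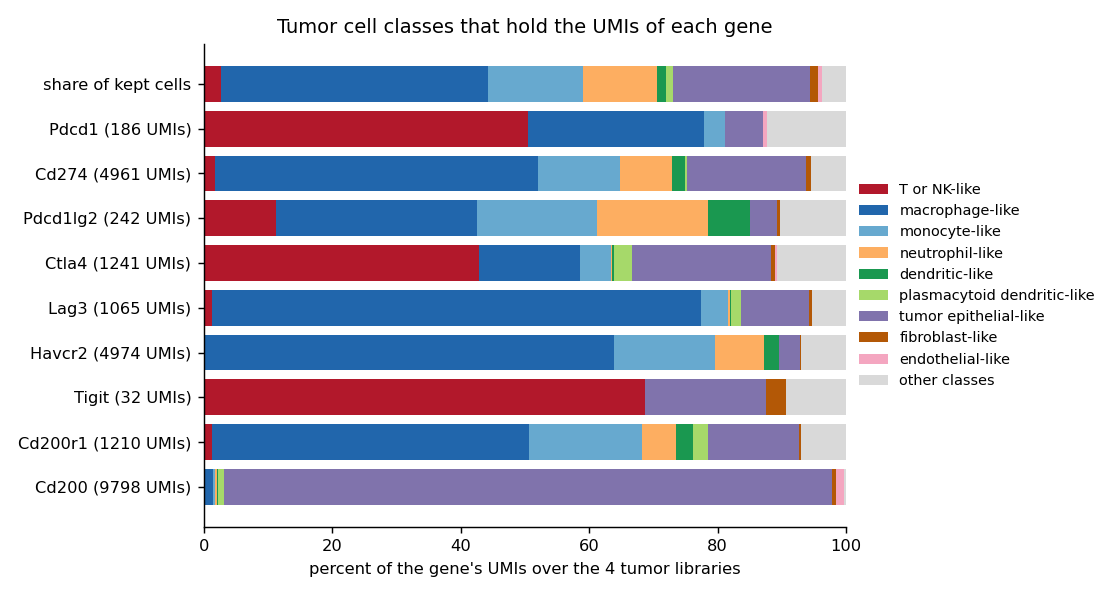
Percent of each gene's UMIs, over the 4 tumor libraries, by the cell class that held them (horizontal axis, percent). The top bar gives the share of kept cells, so that T or NK-like cells (2.62% of the cells) can be set against the Pdcd1, Ctla4 and Tigit bars, and epithelial-like cells against the 94.7% of Cd200. It does not allow for depth per cell, which differed between classes.

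A ratio between 2 tumor libraries is called past the fold where it exceeds 0.5 in size on the log2 scale with at least 20 UMIs in the pair. Between IACS-70654 and vehicle, 21 of 34 class and gene ratios of the 9 genes were past the fold (7 higher, 14 lower; median -0.23), beside 31.9% of all class and gene ratios. Between anti-PD1 and vehicle this was 11 of 29 (6 higher, 5 lower), beside 22.4%. The combination differed from IACS-70654 alone in 17 of 43 (10 higher, 7 lower), beside 20.2%, and from anti-PD1 alone in 23 of 33 (9 higher, 14 lower), beside 32.8%. With a counting interval that excludes 0 these were 15, 6, 11 and 16 ratios. The share of all class and gene ratios by that second limit is not given here. The first and second of these comparisons share the vehicle library, the third shares the IACS-70654 library with the first, and the last shares the anti-PD1 library with the second and the combination library with the third. The shares of all genes past the fold within a class set the scale for each gene below. Between IACS-70654 and vehicle they were 41.4% in T or NK-like, 39% in dendritic-like, 42.6% in fibroblast-like, 37.8% in neutrophil-like, 31% in monocyte-like, 26.6% in epithelial-like and 22.4% in macrophage-like cells. Between anti-PD1 and vehicle they were 34.9% in dendritic-like, 32.7% in T or NK-like, 22.9% in neutrophil-like, 19.3% in monocyte-like and 13% in epithelial-like cells. For the combination over IACS-70654 they were 31.8% in plasmacytoid dendritic-like, 23.5% in neutrophil-like, 11.3% in monocyte-like, 10.3% in epithelial-like and 8.38% in macrophage-like cells, and over anti-PD1 40.5% in dendritic-like, 38.6% in T or NK-like, 36.7% in neutrophil-like, 29.9% in monocyte-like, 28% in epithelial-like and 24.5% in macrophage-like cells.

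Pdcd1 (chromosome 1, 94038305 to 94052553, minus strand, GRCm38) was a low-count gene of T or NK-like cells. Its level there was 63.7 CPM in vehicle (11 UMIs, 31.8 to 114), 121 in IACS-70654 (19 UMIs, 72.9 to 189), 76.9 in anti-PD1 (20 UMIs, 47 to 119) and 161 in the combination (44 UMIs, 117 to 216). Both libraries with IACS-70654 were the higher ones, and neighboring intervals overlapped. In log2 terms the ratio was 0.93 (-0.22 to 2.14) for IACS-70654 over vehicle and 1.06 (0.27 to 1.90) for the combination over anti-PD1. A naive or memory T-like sub-cluster, led by Lef1 and Ccr7, made up 44 of 79 vehicle and 48 of 101 anti-PD1 cells of this class but 2 of 71 IACS-70654 and 1 of 111 combination cells. Without that sub-cluster, an alternative added after the data were seen, the log2 ratio was -0.18 (-1.32 to 1.04) for IACS-70654 over vehicle, in the opposite direction, and 0.36 (-0.43 to 1.20) for the combination over anti-PD1, short of the fold of 0.5. With the sub-clusters that also carry myeloid genes, set aside from the class, the ratios were -0.09 and 0.46. The only sub-cluster named CD8 T-like (17 cells, led by the neutrophil genes G0s2, S100a9 and S100a8) was among those set aside. The T or NK-like values here and below therefore hold no sub-cluster of that name.

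The share of T or NK-like cells with a Pdcd1 UMI was 7.59%, 18.3%, 7.92% and 23.4% in vehicle, IACS-70654, anti-PD1 and the combination. After thinning to 1000 UMIs per cell the shares were 2.9%, 10.8%, 4.17% and 13.5%. Here and below, cells with fewer than 1000 UMIs were left out of the thinned shares. Neutrophil-like cells, which gave 0 Pdcd1 UMIs in all 4 libraries, serve as the background, although their median depths (1202 to 1351 UMIs) were below those of T or NK-like cells (1896 to 2114). In macrophage-like cells, at 6002.5 to 6476 UMIs a cell, Pdcd1 was measured at 2.69, 0.845, 4.49 and 0.693 CPM in the same order of libraries (13, 14, 14 and 10 UMIs). There the direction was the opposite one, with log2 ratios of -1.67 (-2.87 to -0.46) for IACS-70654 over vehicle and -2.69 (-4.03 to -1.42) for the combination over anti-PD1.

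Cd274 (chromosome 19, 29367455 to 29388095, plus strand) encodes PD-L1, and neutrophil-like cells carried it at higher tumor levels than macrophage-like or epithelial-like cells. Dendritic-like levels were higher too, but rested on few UMIs. In IACS-70654 and the combination they were only a little above the macrophage-like levels. The gene overlaps AC119228.1 on the other strand, and reads of the overlap could be split between them. In neutrophil-like cells Cd274 stood at 197 CPM in vehicle (122 UMIs, 164 to 235), 119 in IACS-70654 (48 UMIs, 88.1 to 158), 180 in anti-PD1 (148 UMIs, 152 to 211) and 195 in the combination (84 UMIs, 156 to 242). The IACS-70654 library was the low one, and the other three overlapped. In these cells neutrophil markers summed to 48114, 36966, 52903 and 29973 CPM in the same order of libraries, macrophage markers to 5596, 6492, 4068 and 6097 and epithelial markers to 339, 291, 286 and 576, and their part in the neutrophil-like values of the 9 genes was not tested. On the log2 scale the ratio was -0.72 (-1.23 to -0.23) for IACS-70654 over vehicle, -0.13 for anti-PD1 over vehicle, 0.71 (0.18 to 1.25) for the combination over IACS-70654 and 0.12 for the combination over anti-PD1.

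The share of neutrophil-like cells with a Cd274 UMI was 16.5%, 14.8%, 16% and 15.4% (15%, 11.3%, 11.3% and 14% at 1000 UMIs). Dendritic-like cells were few (24, 73, 27 and 67), and held Cd274 at 238 CPM in vehicle (30 UMIs, 160 to 340), 80.1 in IACS-70654 (32 UMIs), 99.9 in anti-PD1 (14 UMIs) and 86.5 in the combination (30 UMIs). The vehicle library stood above the others, with a log2 ratio of -1.57 (-2.33 to -0.80) for IACS-70654 over vehicle and -1.25 for anti-PD1 over vehicle, which became -2.53 without the top 5% of doublet scores and -2.29 at a finer clustering. The makeup of the class moved with it. A sub-cluster led by Aff3 held 7, 42, 8 and 33 of these cells, one led by Ckb 12, 22, 14 and 30, and one led by Fscn1 and Ccr7 held 5, 9, 5 and 4 in vehicle, IACS-70654, anti-PD1 and the combination. The last of these had 18 of the 30 vehicle Cd274 UMIs, and the part of this makeup in the Cd274 and Havcr2 differences was not tested.

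In macrophage-like cells, the class with most Cd274 UMIs, the order was another one. Cd274 was at 37 CPM in vehicle (179 UMIs, 31.8 to 42.8), 48.7 in anti-PD1 (152 UMIs, 41.3 to 57.1), 64.2 in IACS-70654 (1063 UMIs, 60.4 to 68.1) and 76.2 in the combination (1100 UMIs, 71.8 to 80.8). Both libraries with IACS-70654 lay above both without it. The log2 ratio was 0.80 (0.57 to 1.03) for IACS-70654 over vehicle, 0.65 (0.40 to 0.90) for the combination over anti-PD1, 0.40 (0.08 to 0.72) for anti-PD1 over vehicle and 0.25 for the combination over IACS-70654.

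Macrophage-like cells were made of 6 clusters, of which cluster 7 was led by the interferon-response genes Cxcl10, Ifit3 and Rsad2. That cluster held 34 vehicle, 338 IACS-70654, 44 anti-PD1 and 340 combination cells, and its Cd274 level was 118, 119, 146 and 135 CPM in that order. Without cluster 7 the Cd274 log2 ratio of the remaining macrophage-like cells was 0.72 for IACS-70654 over vehicle and 0.73 for the combination over anti-PD1. In cluster 1, led by Slc8a1 and Selenop, Cd274 went from 53.3 CPM in vehicle to 61.5 in IACS-70654, and in cluster 4, led by Mmp12 and Arg1, from 48.8 to 74.8. Cluster 3, led by Apoe and Ms4a7, gave 26.2 and 35.6 CPM.

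Monocyte-like cells gave Cd274 levels of 52.2, 44.9, 65.9 and 68 CPM in vehicle, IACS-70654, anti-PD1 and the combination. The combination was higher than IACS-70654 alone by a log2 ratio of 0.60 (0.34 to 0.87). T or NK-like cells gave 92.7, 121, 104 and 98.6 CPM from 16 to 27 UMIs a library, with overlapping counting intervals. Free RNA in droplets was not removed from these counts, and macrophage markers summed to 1533 to 3288 CPM in T or NK-like cells against 61210 to 97233 in macrophage-like cells. Their part in the T-cell values was not tested.

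Tumor epithelial-like cells carried little Cd274 in most clusters. The class level was 8.27 CPM in vehicle (53 UMIs, 6.2 to 10.8), 18.2 in IACS-70654 (227 UMIs, 15.9 to 20.7), 7.82 in anti-PD1 (65 UMIs, 6.03 to 9.96) and 31.4 in the combination (579 UMIs, 28.9 to 34.1). Both IACS-70654 libraries were above both others, at a log2 ratio of 1.14 (0.70 to 1.60) for IACS-70654 over vehicle, 2.01 (1.64 to 2.40) for the combination over anti-PD1, 0.79 (0.57 to 1.02) for the combination over IACS-70654 and -0.08 for anti-PD1 over vehicle.

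Cluster 16, led by the interferon-induced genes Gbp2b, Rsad2, Gbp4, Iigp1 and Cxcl10, had 6 vehicle, 46 IACS-70654, 1 anti-PD1 and 100 combination cells. It held 150 of the 227 Cd274 UMIs of the IACS-70654 epithelium, at 167 CPM, and 409 of the 579 of the combination, at 252 CPM. Without cluster 16 the epithelial Cd274 level was 7.49, 6.65, 7.84 and 10.1 CPM in vehicle, IACS-70654, anti-PD1 and the combination. The log2 ratio for IACS-70654 over vehicle turned to -0.17 (-0.71 to 0.38), and that for the combination over anti-PD1 to 0.37 (-0.05 to 0.80), whereas the combination stayed above IACS-70654 alone at 0.61 (0.21 to 1.01). These values without a cluster were added after the data were seen.

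Macrophage markers in cluster 16 summed to 2507 CPM in IACS-70654 and 2189 in the combination and in the whole epithelial-like class to 3816, 4838, 1234 and 3644 in vehicle, IACS-70654, anti-PD1 and the combination. In the same order they summed to 1005, 880, 615 and 1624 CPM in cluster 9, and to at least 61210 in macrophage-like cells. Cluster 6 carried more of them, 21083, 9617, 5154 and 7618 CPM, against 5755, 5632, 6344 and 6352 of the epithelial markers. The part of macrophage RNA or cells in the epithelial-like values of the 9 genes was not tested. Different clusters held most of the epithelial class in the libraries: cluster 10 (Tesc, Igfbp2, Col9a1) held 196 of 400 vehicle and 229 of 500 anti-PD1 cells but 7 of 820 IACS-70654 and 25 of 1233 combination cells, where clusters 5 and 6 were the largest. Cluster 5 (Tinagl1, Krt7, Krt8) had Cd274 levels of 8.58, 3.52, 6.6 and 7.48 CPM, and cluster 6 (Mfge8, Cited4) 9.76, 9.89, 30.6 and 15.2.

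**Figure D2:**
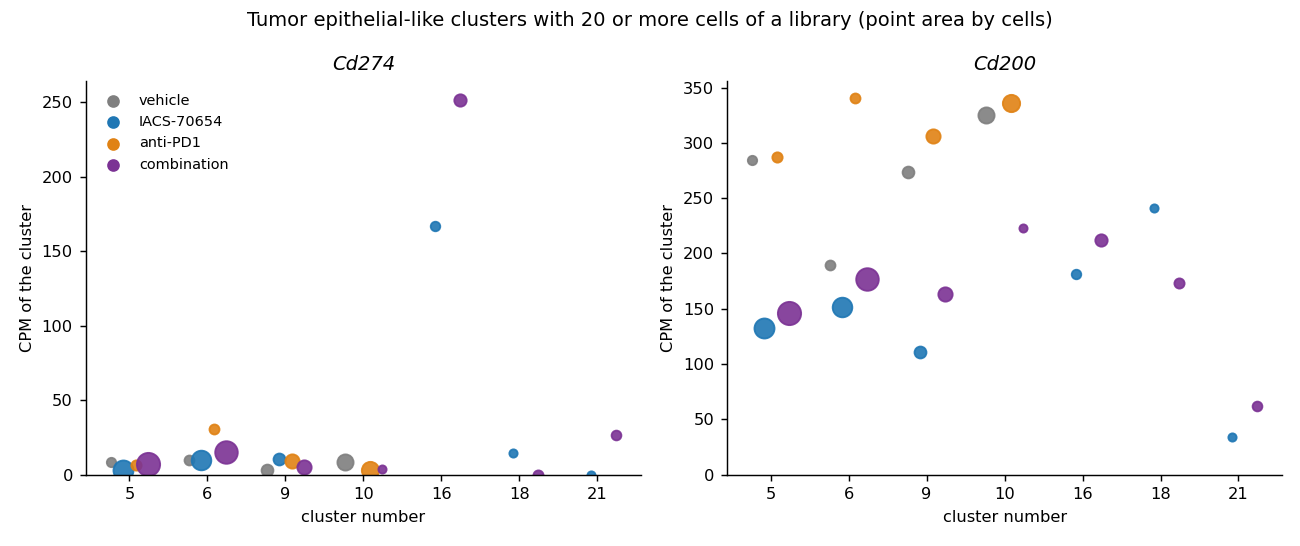
Cd274 (left) and Cd200 (right) in CPM of the cluster, for each epithelial-like cluster (horizontal axis, cluster number) and tumor library with at least 20 cells; point area follows the number of cells. Cluster 16 stands at 167 and 252 CPM of Cd274 in IACS-70654 and the combination, while Cd200 was lower in IACS-70654 and the combination than in vehicle and anti-PD1 within clusters 5, 6, 9 and, for the combination, 10.

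Genes of the interferon gamma route, which carries the signal from the receptor to genes such as Cd274, were compared in the same epithelial-like cells. Between IACS-70654 and vehicle 4 of 11 measured genes were past the fold upward and 1 downward (median 0.26, all genes 0.12): the feedback inhibitor Socs1 at 1.49 and Irf9 at 1.04 on the log2 scale were among the higher ones, and the receptor chain Ifngr2 at -0.62 was lower. The combination over anti-PD1 gave 4 higher and 2 lower of 11, with Socs1 at 1.66. Between anti-PD1 and vehicle 0 of 11 were past the fold. Cluster 16 had 6, 46, 1 and 100 cells in vehicle, IACS-70654, anti-PD1 and the combination. The macrophage markers of the class summed to 3816, 4838, 1234 and 3644 CPM in the same order. The part of either in these differences was not tested. In macrophage-like cells 1 of 11, Socs1 at 1.17, was past it between IACS-70654 and vehicle, and in neutrophil-like cells 3 of 10, all higher, with Jak2 at 0.61.

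Pdcd1lg2 (chromosome 19, 29410919 to 29471161, plus strand), the gene of the second PD-1 ligand, lies next to Cd274 but had few UMIs. Neutrophil-like cells had 37.1 CPM in vehicle (23 UMIs, 23.5 to 55.7), 2.49 in IACS-70654 (1 UMI), 17 in anti-PD1 (14 UMIs) and 9.29 in the combination (4 UMIs). Vehicle stood highest, at a log2 ratio of -3.90 (-9.26 to -1.28) for IACS-70654 over vehicle and -1.13 (-2.20 to -0.11) for anti-PD1 over vehicle. In macrophage-like cells 8, 23, 10 and 35 UMIs were found in vehicle, IACS-70654, anti-PD1 and the combination, and T or NK-like cells gave 15.4 to 40.2 CPM from 4 to 11 UMIs a library.

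Cd200 (chromosome 16, 45382135 to 45409053, minus strand) was abundant in the tumor epithelium and lower there in both libraries with IACS-70654. The epithelial-like level was 290 CPM in vehicle (1858 UMIs, 277 to 304), 320 in anti-PD1 (2660 UMIs, 308 to 332), 141 in IACS-70654 (1755 UMIs, 134 to 147) and 163 in the combination (3003 UMIs, 157 to 169). No interval of an IACS-70654 library reached those of the libraries without it. The log2 ratio was -1.05 (-1.14 to -0.95) for IACS-70654 over vehicle, -0.97 (-1.05 to -0.90) for the combination over anti-PD1, 0.14 for anti-PD1 over vehicle and 0.21 for the combination over IACS-70654.

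The share of epithelial-like cells with a Cd200 UMI was 83.0% in vehicle, 68.5% in IACS-70654, 87.6% in anti-PD1 and 70.2% in the combination, at median depths of 13981 to 16118 UMIs. After thinning to 1000 UMIs it was 23%, 13.2%, 26.5% and 14.8%. In macrophage-like cells the same share was 1.39% to 2.35% without thinning, and their Cd200 level was 1.86 to 3.52 CPM.

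Since cluster 10 was nearly absent from both IACS-70654 libraries, the Cd200 ratio was also taken without it, and was then -0.84 (-0.96 to -0.71) for IACS-70654 over vehicle and -0.91 for the combination over anti-PD1. Within cluster 5 Cd200 was at 284, 133, 287 and 146 CPM in vehicle, IACS-70654, anti-PD1 and the combination. Cluster 9, led by Naaladl2 and Cpm and similar in cell number between libraries (89, 91, 145 and 146 cells), gave 274, 111, 306 and 164 CPM, and cluster 6 gave 190, 152, 341 and 177. Cluster 21, led by the basal or squamous keratins Krt14, Krt6a and Krt16, was found in IACS-70654 and the combination alone (26 and 50 cells), and had the lowest Cd200 levels of the class, 34 and 61.7 CPM.

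Stromal cells carried Cd200 as well. Endothelial-like cells, 11 to 40 a library, had 358 CPM in vehicle (29 UMIs, 240 to 515), 220 in IACS-70654 (31 UMIs), 185 in anti-PD1 (18 UMIs) and 187 in the combination (42 UMIs). Fibroblast-like cells had 69.2 CPM in vehicle (35 UMIs, 48.2 to 96.2), 6.2 in IACS-70654 (2 UMIs, 0.751 to 22.4), 52.7 in anti-PD1 (19 UMIs) and 25.5 in the combination (10 UMIs). Fibroblast-like cells thus were lowest in the IACS-70654 library, at a log2 ratio of -3.48 (-6.58 to -1.52) to vehicle, and the combination over anti-PD1 gave -1.05 (-2.31 to 0.13).

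Cd200r1 (chromosome 16, 44765736 to 44794978, plus strand), the receptor gene for CD200, was a myeloid gene in these tumors. It belongs to a family of close copies such as Cd200r4, so that its counts are uncertain where reads could fit several members. Macrophage-like cells had 15.5, 15.5, 21.8 and 13.7 CPM in vehicle, IACS-70654, anti-PD1 and the combination (75, 256, 68 and 198 UMIs). Between IACS-70654 and vehicle no difference was seen at this depth, and the combination was lower than anti-PD1 by a log2 ratio of -0.67. In epithelial-like cells, which had 5.15, 4.08, 4.93 and 2.44 CPM, the combination was the low library. Neutrophil-like cells gave 22.6 CPM in vehicle (14 UMIs, 12.4 to 37.9), 59.7 in IACS-70654 (24 UMIs, 38.3 to 88.9), 24.3 in anti-PD1 (20 UMIs) and 13.9 in the combination (6 UMIs, 5.12 to 30.3). The IACS-70654 library alone was high, with a log2 ratio of 1.40 (0.39 to 2.47) to vehicle, and the combination was below it by -2.10.

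Havcr2 (chromosome 11, 46454935 to 46481255, plus strand) encodes TIM-3, and macrophage-like, monocyte-like and neutrophil-like cells together held most of its UMIs. T or NK-like cells had 2, 0, 0 and 6 Havcr2 UMIs in vehicle, IACS-70654, anti-PD1 and the combination. The T or NK-like sub-clusters set aside for their myeloid genes, the CD8 T-like one included, held 107 Havcr2 UMIs over all tumor libraries. In macrophage-like cells Havcr2 was at 112 CPM in vehicle (544 UMIs, 103 to 122), 128 in anti-PD1 (399 UMIs, 116 to 141), 73.4 in IACS-70654 (1216 UMIs, 69.3 to 77.6) and 70.2 in the combination (1013 UMIs, 65.9 to 74.6). Havcr2 was thus lower in both libraries with IACS-70654, in the cells where Cd274 was higher. The log2 ratio was -0.61 (-0.76 to -0.47) for IACS-70654 over vehicle, -0.87 (-1.03 to -0.70) for the combination over anti-PD1 and 0.19 for anti-PD1 over vehicle.

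All 6 macrophage-like clusters had less Havcr2 in IACS-70654 than in vehicle and less in the combination than in anti-PD1. In cluster 1 the level was 175, 82.6, 180 and 84.6 CPM in vehicle, IACS-70654, anti-PD1 and the combination, in cluster 3 it was 75, 47, 80.5 and 45.8, and in cluster 4 it was 143, 92.7, 117 and 71.9. Without cluster 7 the class ratios were -0.62 and -0.93. The share of macrophage-like cells with a Havcr2 UMI was 45.3%, 31.4%, 44.6% and 30.5% (9.70%, 6.99%, 8.46% and 6.57% at 1000 UMIs), against 0% to 5.41% of T or NK-like cells, which were less deep.

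Monocyte-like cells had Havcr2 at 89 CPM in vehicle (75 UMIs, 70 to 112), 55.5 in IACS-70654 (236 UMIs, 48.6 to 63), 133 in anti-PD1 (143 UMIs, 112 to 156) and 68.9 in the combination (327 UMIs, 61.6 to 76.8). As in macrophage-like cells the libraries with IACS-70654 were low and anti-PD1 was the highest. In monocyte-like cells the log2 ratio of anti-PD1 to vehicle was 0.58 (0.16 to 1.00). The ratio was -0.68 (-1.06 to -0.29) for IACS-70654 over vehicle and -0.95 (-1.23 to -0.65) for the combination over anti-PD1. Macrophage markers summed to 25076, 34140, 23730 and 35168 CPM in the monocyte-like cells of vehicle, IACS-70654, anti-PD1 and the combination, and monocyte markers to 5110, 2807, 5708 and 3143, so both lists moved with the Havcr2 level, and their part in it was not tested.

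Neutrophil-like cells gave another order of Havcr2 levels. They had 165 CPM in vehicle (102 UMIs, 134 to 200), 112 in IACS-70654 (45 UMIs, 81.7 to 150), 156 in anti-PD1 (129 UMIs, 131 to 186) and 235 in the combination (101 UMIs, 191 to 285). The combination library was the highest, above IACS-70654 by a log2 ratio of 1.07 (0.55 to 1.61) and above anti-PD1 by 0.59 (0.19 to 0.97). The combination also had the lowest neutrophil markers (29973 CPM, against 36966 to 52903) and the highest epithelial markers (576 CPM, against 286 to 339) in these cells, whose part was not tested. IACS-70654 was below vehicle by -0.56 (-1.10 to -0.04). Dendritic-like cells, with 22 to 35 UMIs a library, had 246, 87.7, 157 and 77.8 CPM, with log2 ratios of -1.49 for IACS-70654 over vehicle and -1.01 for the combination over anti-PD1.

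Because Cd274 and Havcr2 had the most myeloid UMIs and differed in opposite directions in macrophage-like cells, the 250 bases before their RefSeq starts (GRCm38.p6) are shown, read 5′ to 3′ on the gene's strand. 7 of the 9 genes had a RefSeq promoter entry. Each window was searched on both strands for the interferon-stimulated response element (GAAA, any 2 bases, GAAA), the gamma-activated site (TTC, any 3 bases, GAA), the AP-1 site TGANTCA and a kappaB form (GGGA, any base, TTTCC). Cd274 had no match to these letters, and Havcr2 had 1 match to AP-1, in capitals.
Cd274, chr19:29367188-29367437, plus strand: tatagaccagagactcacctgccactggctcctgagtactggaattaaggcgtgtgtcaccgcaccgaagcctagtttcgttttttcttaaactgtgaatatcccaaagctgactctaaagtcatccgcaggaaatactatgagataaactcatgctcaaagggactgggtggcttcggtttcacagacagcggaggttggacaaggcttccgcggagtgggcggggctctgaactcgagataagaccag
Havcr2, chr11:46454681-46454930, plus strand: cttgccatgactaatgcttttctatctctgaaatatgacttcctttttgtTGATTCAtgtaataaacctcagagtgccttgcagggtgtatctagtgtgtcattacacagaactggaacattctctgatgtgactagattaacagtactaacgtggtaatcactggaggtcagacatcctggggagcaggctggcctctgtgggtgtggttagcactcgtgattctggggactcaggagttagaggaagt
Of 32851 promoter windows of this length 6.75% held the AP-1 letters, 2.98% the response element, 7.02% the gamma-activated site and 0.356% the kappaB form. A match is a description of letters and not a bound site.

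Lag3 (chromosome 6, 124904361 to 124911705, minus strand) encodes a receptor for MHC class II known from T cells, yet macrophage-like cells held most of its UMIs. Its neighbor Ptms ends within 2000 bases on the same strand and is far more abundant (272 to 330 CPM in macrophage-like cells), so reads of Ptms counted as Lag3 cannot be told apart. Macrophage-like cells had Lag3 at 26 CPM in vehicle (126 UMIs, 21.7 to 31), 20.5 in IACS-70654 (339 UMIs, 18.3 to 22.8), 31.4 in anti-PD1 (98 UMIs, 25.5 to 38.3) and 17.2 in the combination (248 UMIs, 15.1 to 19.5). The combination was below anti-PD1 by a log2 ratio of -0.87 (-1.21 to -0.52), and IACS-70654 was below vehicle by -0.35 (-0.65 to -0.04), short of the fold of 0.5. T or NK-like cells had 0, 4, 3 and 6 Lag3 UMIs, and the T or NK-like sub-clusters set aside for their myeloid genes held 25 over all tumor libraries.

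Lag3 was uneven between the macrophage-like clusters. Cluster 1 had 46.8, 26.4, 53.2 and 20.5 CPM in vehicle, IACS-70654, anti-PD1 and the combination, and cluster 3 had 34.5, 26.2, 60.8 and 26.2. In epithelial-like cells Lag3 was at 2.5, 2.56, 0.842 and 3.09 CPM (16, 32, 7 and 57 UMIs). The anti-PD1 library was the low one, at -1.57 to vehicle and with the combination 1.88 above it on the log2 scale, and the macrophage markers summed to 1234 CPM in the anti-PD1 library and to 3644 to 4838 in the other three. Their part in this difference was not tested.

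**Figure D3:**
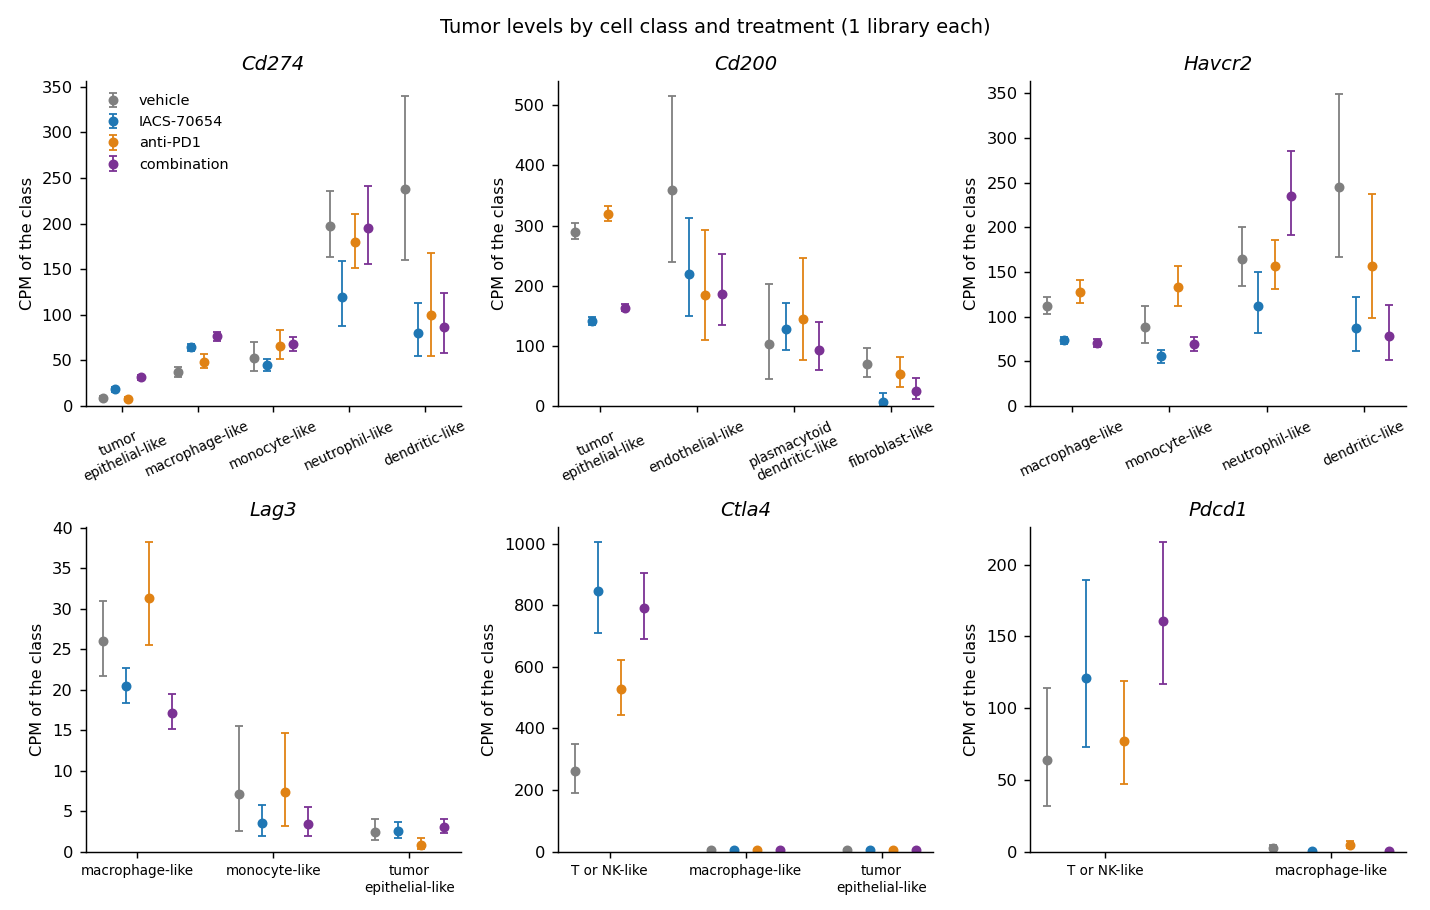
Levels of 6 genes in tumor cell classes (vertical axis, CPM of the class), with 1 point per treatment library and bars for the exact 95% Poisson interval of counting. Epithelial-like Cd200 and macrophage-like Havcr2 were lower, and macrophage-like and epithelial-like Cd274 higher, in IACS-70654 and the combination than in vehicle and anti-PD1.

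Ctla4 (chromosome 1, 60887000 to 60915832, plus strand) encodes the receptor that competes with CD28 for CD80 and CD86. T or NK-like cells had 261 CPM in vehicle (45 UMIs, 190 to 349), 847 in IACS-70654 (133 UMIs), 527 in anti-PD1 (137 UMIs, 442 to 623) and 792 in the combination (217 UMIs, 690 to 905). Vehicle was the lowest and its interval met none of the others. The log2 ratio was 1.70 (1.20 to 2.22) for IACS-70654 over vehicle, 1.02 (0.52 to 1.54) for anti-PD1 over vehicle, 0.59 (0.27 to 0.91) for the combination over anti-PD1 and -0.10 for the combination over IACS-70654.

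The makeup of the T or NK-like class differed between the libraries along with Ctla4. Beside the naive or memory T-like sub-cluster given for Pdcd1, a regulatory T-like sub-cluster, with Foxp3, Tnfrsf4 and Ikzf2 among its leading genes, held 8, 26, 8 and 37 cells. Within it Ctla4 was at 1292, 1604, 2142 and 1425 CPM in vehicle, IACS-70654, anti-PD1 and the combination, from 19, 103, 59 and 154 UMIs. NK-like cells gave 272, 421, 576 and 647 CPM. The main NK-like sub-cluster (127 cells, led by Ccl5 and Xcl1) scored 1.10 for the NK markers and 0.92 for the CD8 T markers. Its name therefore does not separate NK from CD8 T cells. Without the naive or memory T-like sub-cluster the ratio was 0.96 for IACS-70654 over vehicle and 0.21 for the combination over anti-PD1. With the sub-clusters that also carry myeloid genes (22, 76, 21 and 63 cells), set aside from the class, the ratios were 0.12 and -0.02.

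The share of T or NK-like cells with a Ctla4 UMI was 21.5%, 50.7%, 34.7% and 50.5% (17.4%, 40.0%, 27.1% and 36.5% at 1000 UMIs). In macrophage-like cells, which were deeper, it was 4.01%, 3.39%, 2.77% and 2.88% (0.47%, 0.50%, 0.43% and 0.45% at 1000 UMIs), and the macrophage-like level of 4.57 to 5.58 CPM differed by less than its counting interval. Epithelial-like cells likewise had 5.15 to 6.57 CPM, and neutrophil-like cells had 1, 0, 0 and 0 Ctla4 UMIs. The gene overlaps Rpl18-ps1 on the same strand, and the part of reads of that overlap in these counts was not tested. Plasmacytoid dendritic-like cells had 2, 26, 5 and 2 Ctla4 UMIs, a log2 ratio of -3.31 (-6.43 to -1.31) for the combination over IACS-70654.

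Tigit (chromosome 16, 43648867 to 43664146, minus strand), the gene of a receptor for CD155 on T and NK cells, had 2, 2, 7 and 11 UMIs in T or NK-like cells of vehicle, IACS-70654, anti-PD1 and the combination, or 11.6, 12.7, 26.9 and 40.2 CPM. It had 0 UMIs in the macrophage-like, monocyte-like, neutrophil-like and dendritic-like cells of all 4 libraries. Of the Tigit UMIs in T or NK-like cells the regulatory T-like sub-cluster held 0, 1, 4 and 7. No ratio reached 20 UMIs.

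Related genes of T or NK-like cells were taken from lists of costimulatory receptors and of exhaustion and effector genes. Between IACS-70654 and vehicle 7 of 9 measured exhaustion and effector genes were higher and 2 lower past the fold (median 0.71, all genes 0.08), among them the transcription factors Nr4a1 at 1.10 and Tox at 0.71. Of 8 costimulatory genes 4 were higher, with Icos at 1.28, and Cd28 was lower at -0.67. Between anti-PD1 and vehicle 5 of 12 exhaustion and effector genes were higher and 2 lower, and 2 of 8 costimulatory genes higher and 0 lower. Of these the granzyme genes Gzma (3.36, 124 against 8 UMIs) and Gzmb (2.57) were higher and Tcf7, a factor of naive and memory T cells, was lower (-0.76). A cycling NK-like sub-cluster of 3, 1, 7 and 2 cells in vehicle, IACS-70654, anti-PD1 and the combination held 0, 0, 116 and 0 of the Gzma UMIs and 5, 0, 78 and 0 of the Gzmb UMIs, so 7 cells of the anti-PD1 library carried most of both. Over anti-PD1 the combination had 4 of 8 costimulatory genes higher and 4 lower, among them Tnfrsf4 at 1.65, Tnfrsf18 at 1.36 and Tnfrsf9 at 1.27, and 6 of 15 exhaustion and effector genes higher and 4 lower, among them Gzma at -2.17 and Gzmb at -1.61. The naive or memory and regulatory T-like shares given for Pdcd1 and Ctla4 differ between the same libraries, and their part in these values was not tested.

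The partners of the 9 genes were compared in the epithelium and in macrophage-like cells. In epithelial-like cells 3 of 10 measured binding partners were higher in IACS-70654 than in vehicle and 0 lower (median 0.35, all genes 0.12), beside 26.6% of all genes past the fold: the TIM-3 ligand gene Lgals9 at 1.03, the LAG-3 ligand gene Lgals3 at 0.67 and Cd86 at 0.55. Against anti-PD1 the combination gave 1.38, 1.32 and 1.03 for the same genes. Macrophage markers in epithelial-like cells moved the same way, from 3816 CPM in vehicle to 4838 in IACS-70654 and from 1234 in anti-PD1 to 3644 in the combination, and their part in these differences was not tested. In macrophage-like cells 2 of 9 partners were lower and 0 higher, beside 22.4% of all genes, with Lgals3 at -0.81 for IACS-70654 over vehicle and -1.29 for the combination over anti-PD1. Of 11 other inhibitory genes measured in epithelial-like cells 2 were higher and 1 lower: Vtcn1 (B7-H4) was at 1.21, H2-T23 (Qa-1, the ligand of NKG2A) at 0.76 and Nt5e (CD73) at -1.40 for IACS-70654 over vehicle. In macrophage-like cells 1 of 13 was higher and 3 were lower, with the receptor gene Cd244a at -1.18.

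Over 40 class and library sums, the genes most like each of 7 members by Pearson correlation of log2(CPM + 10) among 12244 genes were named as a description. These sums share libraries and cell classes. For Ctla4 they were Il2rb (0.96), Gimap7 (0.95) and Cd28 (0.94), for Havcr2 Bcl2a1a (0.94), Efhd2 and Gpr35 (0.92 each), and for Cd274 Pim1 (0.88), Slfn2 (0.87) and Neurl3 (0.84). For Cd200 they were Myo6 and Emid1 (0.85 each) and Mpzl1 (0.84). Pdcd1lg2 was nearest to Traf1 (0.86), Cd200r1 to Jaml (0.78) and Lag3 to Slc9a9 (0.74).

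In marrow, where each group had 2 libraries, Cd200r1 and Cd274 were the members with most UMIs, 8602 and 1233 in the CD45+ sort and 2492 and 2312 in the c-Kit+ sort. Pdcd1 (28 and 48 UMIs) and Tigit (22 and 9) were near the limit of detection. Over the 6 CD45+ libraries Cd200r1 was highest in basophil or mast-like cells (lowest 96.1, median 122, highest 152 CPM), and the other classes included plasmacytoid dendritic-like cells (57.1, 68.9 and 109), mature neutrophil-like cells (52.9, 65.7 and 68.5), immature neutrophil-like cells (44.4, 48.7 and 56.5), monocyte-like cells (22.6, 30.7 and 41.4), T or NK-like cells (17.4, 29.1 and 92.2) and neutrophil precursor-like cells (13.6, 15.9 and 21.7). The medians of the neutrophil series thus went up from precursor to mature cells. Precursor and immature ranges did not overlap, while immature (highest 56.5) and mature ranges (lowest 52.9) did. The ranges of mature neutrophil-like and plasmacytoid dendritic-like cells overlapped as well. The Il1b-high cluster of the mature cells, taken alone, had 37.0, 72.8 and 105 CPM.

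In CD45+ marrow Cd274 had its highest median level in a small neutrophil cluster led by Il1b, which held 122 of the 1233 Cd274 UMIs, with 18.5, 83.0 and 105 CPM as the lowest, median and highest of the 6 libraries. In c-Kit+ marrow it was highest in plasma-like cells (34.3, 61.1 and 90.2) and in stem-like cells (24.0, 33.7 and 38.2). Cd200 was highest in plasmacytoid dendritic-like cells (18.1, 39.5 and 55.4 CPM) and in c-Kit+ plasma-like cells (27.8, 36.7 and 41.3), whose ranges overlapped, and was at 10.7, 14.4 and 18.6 in c-Kit+ stem-like cells. Havcr2 was found in plasmacytoid dendritic-like cells (1.81, 7.05 and 30.2), lymphoid-primed-like progenitors (0, 7.73 and 11.7) and monocyte-like cells (1.65, 3.46 and 13.1), and at 0 UMIs in the CD45+ T or NK-like cells. Ctla4 was at 38.0, 74.1 and 99.1 CPM in those T or NK-like cells, from 109 UMIs, and Lag3 at 2.24, 20.2 and 32.3 in basophil or mast-like cells and 8.15, 17.2 and 25.3 in plasmacytoid dendritic-like cells, with 3 UMIs in T or NK-like cells.

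**Figure D4:**
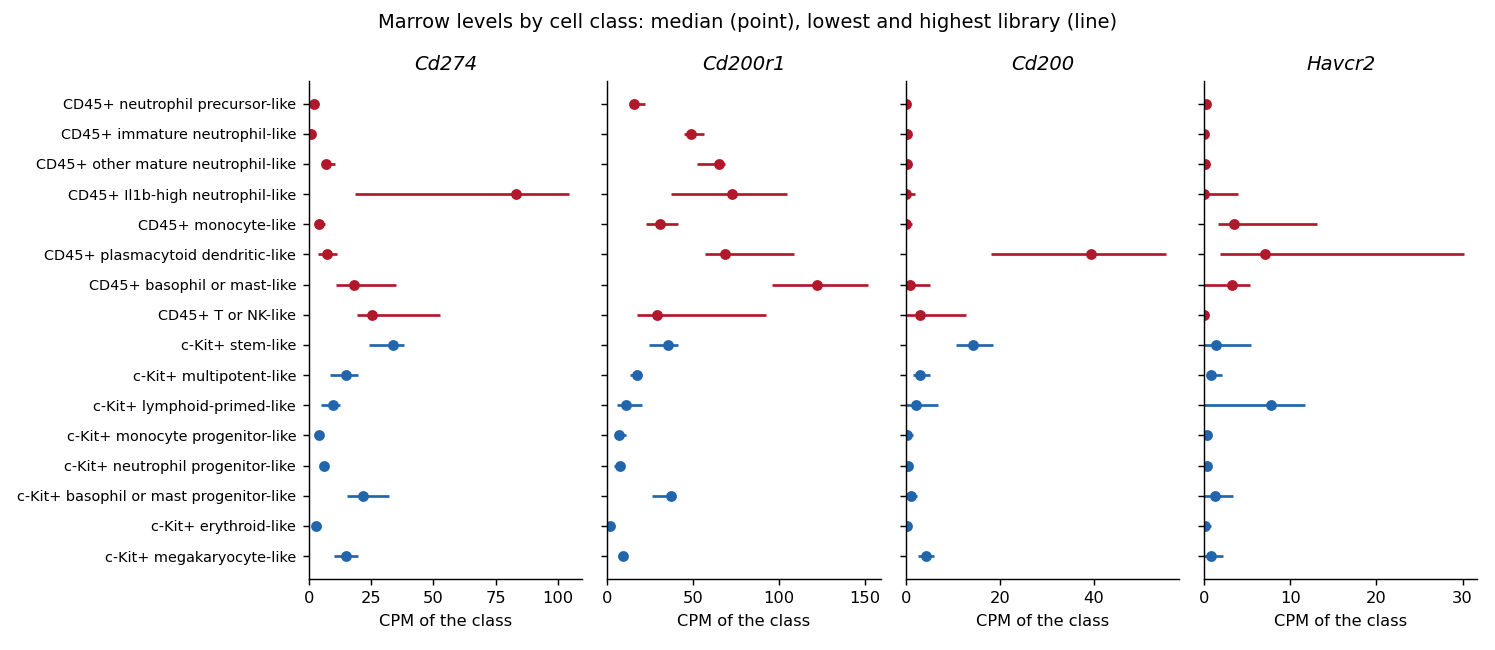
Cd274, Cd200r1, Cd200 and Havcr2 in marrow cell classes (horizontal axis, CPM of the class), with the median of the libraries as a point and the lowest and highest library as a line (red, CD45+ sort; blue, c-Kit+ sort). Among the classes drawn, Cd274 stands out in Il1b-high neutrophil-like cells (median 83.0 CPM) and Cd200 in plasmacytoid dendritic-like cells (median 39.5 CPM). The c-Kit+ plasma-like cells, with a Cd200 median of 36.7 CPM and a high Cd274 level, are not drawn.

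11 pairs of marrow classes were compared over the libraries by exact paired permutation tests, two-sided. None passed an adjusted p of 0.05 (smallest 0.0764), and the smallest raw p that 6 libraries allow, 0.031, was reached by 4 pairs in the exact test. At the finer clustering (Leiden resolution 2) 8 of the 11 pairs passed, at an adjusted p of 0.0430 in the same exact test. The Cd200, Ctla4 and Pdcd1 pairs with B-like cells had 5 libraries at the main clustering, where the smallest raw p of this test is 0.0625. At the finer clustering they had 6. The 4 pairs kept a raw p of 0.031 in both, so their passing came through the adjustment over all pairs and not from a stronger difference. The 4 pairs were Cd274 in Il1b-high neutrophil-like cells (73.8 ± 33.9 CPM, SD, n = 6) over other mature neutrophil-like cells (7.43 ± 1.87), and Cd200r1 in basophil or mast-like cells (122 ± 25.3) over mature neutrophil-like cells (63.4 ± 5.80). The others were Cd200r1 in basophil or mast progenitor-like (35.3 ± 4.85) over neutrophil progenitor-like cells (7.1 ± 2.1), and Havcr2 in monocyte-like (4.78 ± 4.13) over mature neutrophil-like cells (0.2 ± 0.174). Each of the 4 was higher in 6 of 6 libraries. At the finer clustering the basophil or mast-like class had 190 cells in place of 329, and its Cd200r1 level was 265 ± 34.8 CPM (SD, n = 6) against 69.6 ± 9.80 in mature neutrophil-like cells.

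Treatment was tested within marrow classes by edgeR's quasi-likelihood test on the summed UMIs over all genes, with trimmed-mean (TMM) scaling and Benjamini-Hochberg adjustment, and a change was called where it exceeded 0.5 on the log2 scale with an adjusted p below 0.01. Vehicle differed from ctrl in 1 of 20 class and gene tests of the 9 genes in the CD45+ sort (1 higher), beside 2.86% of all tests, and in 0 of 30 in the c-Kit+ sort, beside 1.14%, where 2 had an unadjusted p under 0.05 and DESeq2 also called 0. IACS-70654 differed from vehicle in 3 of 19 in the CD45+ sort (0 higher, 3 lower), beside 12.7%, and in 3 of 30 in the c-Kit+ sort (2 higher, 1 lower), beside 5.72%. DESeq2 called 0 in the first of these contrasts, 2 for IACS-70654 in the CD45+ sort and 0 for IACS-70654 in the c-Kit+ sort, and gave no adjusted p for Havcr2 in either class where edgeR called it. Both contrasts share the vehicle libraries.

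TMM scaling sets the median gene of a class near 0. Scaling by the class total alone, added after the data were seen, moved the median of all genes between IACS-70654 and vehicle to 0.16 in mature, 0.31 in immature and 0.30 in precursor neutrophil-like cells, and between vehicle and ctrl to -0.27 in immature and -0.16 in precursor cells. The fold changes below are relative to the median gene, and for the 9 genes the value by class total is given beside a call in one of these classes. By class total the CD45+ sort had 4 calls of the 9 genes between IACS-70654 and vehicle (1 higher, 3 lower) and 0 between vehicle and ctrl. The share of all tests called by class total is not given here.

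Cd274 fell in mature neutrophil-like marrow cells with IACS-70654. The libraries were at 13.6 and 9.27 CPM in ctrl (54 and 36 UMIs), 12.4 and 12.4 in vehicle (103 and 125 UMIs) and 6.25 and 6.36 in IACS-70654 (70 and 88 UMIs). Both IACS-70654 libraries were below all 4 others. The change was -1.14 on the log2 scale (SE 0.156, edgeR adjusted p = 5.97e-09) from vehicle to IACS-70654, or -0.97 by class total (edgeR adjusted p = 5.08e-07), in a class where 23.2% of genes were called. Vehicle and ctrl were not told apart, at 0.19 (edgeR adjusted p = 0.535).

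The Il1b-high cluster within this class held few cells of ctrl libraries (71 and 82), most in vehicle (293 and 318) and least with IACS-70654 (29 and 31). Its own Cd274 levels were 105 and 104 CPM in ctrl, 76 and 90 in vehicle and, with IACS-70654, 18.5 and 49.8, the last from 1 and 3 UMIs. The change within it was -1.24 (SE 0.689, edgeR adjusted p = 0.384). In the remaining mature neutrophil-like cells Cd274 was at 10.7 and 5.62 CPM in ctrl, 8.19 and 7.75 in vehicle and, with IACS-70654, 6.19 and 6.17. The change there was -0.60 (SE 0.183, edgeR adjusted p = 0.00449), and by class total -0.36 (edgeR adjusted p = 0.0860), so the call without the Il1b-high cells, added after the data were seen, rested on the scaling.

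Other classes had Cd274 in either direction. Uncalled falls with IACS-70654 were seen in basophil or mast-like (-0.62), basophil or mast progenitor-like (-0.55), c-Kit+ plasma-like (-0.66), erythroid-like (-0.34) and megakaryocyte-like cells (-0.006). Uncalled rises were seen in CD45+ monocyte-like (0.49), CD45+ stem or progenitor-like (0.62), lymphoid-primed-like (0.66) and neutrophil progenitor-like cells (0.18). In neutrophil precursor-like cells Cd274 was at 1.44 and 2.29 CPM in ctrl, 2.08 and 1.01 in vehicle and, with IACS-70654, 3.55 and 3.28, and the IACS-70654 libraries were the highest 2. This did not pass under TMM (0.89, edgeR adjusted p = 0.0235) and did by class total (1.18, edgeR adjusted p = 0.00299). With 1 library left out at a time the change was 0.42 to 1.45, the highest without vehicle library 1. In c-Kit+ multipotent-like cells Cd274 rose, from 12.9 and 11 CPM in vehicle (67 and 25 UMIs) to 19.6 and 18.2 in IACS-70654 (245 and 130 UMIs), with ctrl at 8.47 and 16.9.

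The multipotent-like Cd274 change was 0.61 (SE 0.169, edgeR adjusted p = 0.00269; 6.09% of genes called). DESeq2 did not call it (0.62, DESeq2 adjusted p = 0.250). It missed the threshold when any of vehicle 1 (adjusted p 0.0648), vehicle 2 (0.0228), IACS-70654 1 (0.0611) or IACS-70654 2 (0.0104) was left out of the edgeR fit. Stem-like cells, with the higher Cd274, had 33.9 and 33.9 CPM in vehicle and 33.4 and 38.2 in IACS-70654 (-0.01, edgeR adjusted p = 0.994). Monocyte progenitor-like cells gave 0.58 (edgeR adjusted p = 0.0432).

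Cd200r1 in neutrophil precursor-like cells was higher in the vehicle libraries than in the other 4. It was at 17.7 and 13.6 CPM in ctrl (123 and 95 UMIs), 19.9 and 21.7 in vehicle (191 and 259 UMIs) and 13.9 and 14 in IACS-70654 (165 and 214 UMIs). The change from vehicle to IACS-70654 was -0.87 (SE 0.111, edgeR adjusted p = 1.56e-06; 24% of genes called), or -0.58 by class total (edgeR adjusted p = 0.000179). From ctrl to vehicle it was 0.56 (SE 0.126, edgeR adjusted p = 0.00444; 3.62% called), and by class total 0.41 (edgeR adjusted p = 0.0242), below both limits of a call. DESeq2 did not call that second change either (0.56, DESeq2 adjusted p = 0.0441). It also missed the threshold without ctrl 2 (0.39, adjusted p 0.0935), vehicle 1 (0.63, 0.0107) or vehicle 2 (0.49, 0.0705) in the edgeR fit.

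In later neutrophil stages no change of Cd200r1 was called. Immature neutrophil-like cells had 54.1 and 46.5 CPM in ctrl, 44.4 and 47 in vehicle and, with IACS-70654, 56.5 and 50.4 (-0.07 from vehicle, edgeR adjusted p = 0.438, and 0.21 by class total, edgeR adjusted p = 0.0120, so the direction turned with the scaling). Mature neutrophil-like cells had 66.7 and 68.5, 52.9 and 60.7, and 66.6 and 64.8 CPM in the same order (0.03, edgeR adjusted p = 0.711, and 0.20 by class total, edgeR adjusted p = 0.00603, below the fold of 0.5). The paralog Cd200r4 fell in precursor-like (-1.16) and mature (-0.62) neutrophil-like cells with IACS-70654 under TMM, and neither was called by class total. The difference between stages was not tested.

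In c-Kit+ monocyte progenitor-like cells Cd200r1 rose with IACS-70654. It was at 5.9 and 5.27 CPM in ctrl (40 and 27 UMIs), 6.4 and 7.12 in vehicle (125 and 59 UMIs) and 10.9 and 8.05 in IACS-70654 (118 and 48 UMIs). The change was 0.56 (SE 0.161, edgeR adjusted p = 0.00353; 6.85% of genes called), and DESeq2 did not call it (0.50, DESeq2 adjusted p = 0.349). Without IACS-70654 1 it was 0.26 (adjusted p 0.533), without vehicle 1 it was 0.45 (0.154) and without ctrl 2 it was 0.56 (0.0106) in the edgeR fit. Lymphoid-primed-like cells had 5.53 and 10.1 CPM in vehicle and 20.2 and 13.9 in IACS-70654 (1.27, edgeR adjusted p = 0.0498), and plasmacytoid dendritic-like cells 61.3 and 61.9 against 109 and 82.4 (0.60, edgeR adjusted p = 0.0913).

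Havcr2, at low counts, fell in plasmacytoid dendritic-like marrow cells. It was at 5.83 and 8.27 CPM in ctrl (6 and 10 UMIs), 14.5 and 30.2 in vehicle (9 and 20 UMIs) and 4.67 and 1.81 in IACS-70654 (4 and 2 UMIs). Vehicle was above both other groups, and IACS-70654 and ctrl did not overlap either. The count filter (filterByExpr) asks for a minimal level in only as many libraries as the smallest group holds. The vehicle libraries, with the highest levels, can meet this alone. Havcr2 passed it in this class and in lymphoid-primed-like cells only, so the filter favored a fall from vehicle. The change from vehicle to IACS-70654 was -2.84 (SE 0.624, edgeR adjusted p = 0.00326; 4.2% of genes called; DESeq2 gave no adjusted p), and that from ctrl to vehicle was 1.64 (edgeR adjusted p = 0.333). It missed the threshold without ctrl 1 (adjusted p 0.0110), ctrl 2 (0.0138), vehicle 2 (-2.20, 0.205) or IACS-70654 2 (-2.27, 0.0837) in the edgeR fit.

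Among c-Kit+ progenitors Havcr2 was lower with IACS-70654 in lymphoid-primed-like cells. It was at 9.4 and 6.06 CPM in ctrl (9 and 5 UMIs), 11.1 and 11.7 in vehicle (16 and 7 UMIs) and at 0 UMIs in both IACS-70654 libraries, which had more of these cells (320 and 246, against 186 and 82 in vehicle). Taken over the group, 0 UMIs allow up to 0.991 CPM (3 UMIs), which is 11.4-fold below the 11.3 CPM measured in vehicle. This fold leaves out the counting error of the 23 vehicle UMIs and the spread between libraries. The limit of the count filter given for plasmacytoid dendritic-like cells applies here too, since vehicle had the highest levels. The edgeR adjusted p was 6.95e-05, in a class where 3.35% of genes were called, and DESeq2 gave no adjusted p. The call was lost without vehicle 1 (adjusted p 0.0184) or IACS-70654 1 (0.0116) in the edgeR fit. Ctrl and vehicle were not told apart (edgeR adjusted p = 0.907).

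**Figure D5:**
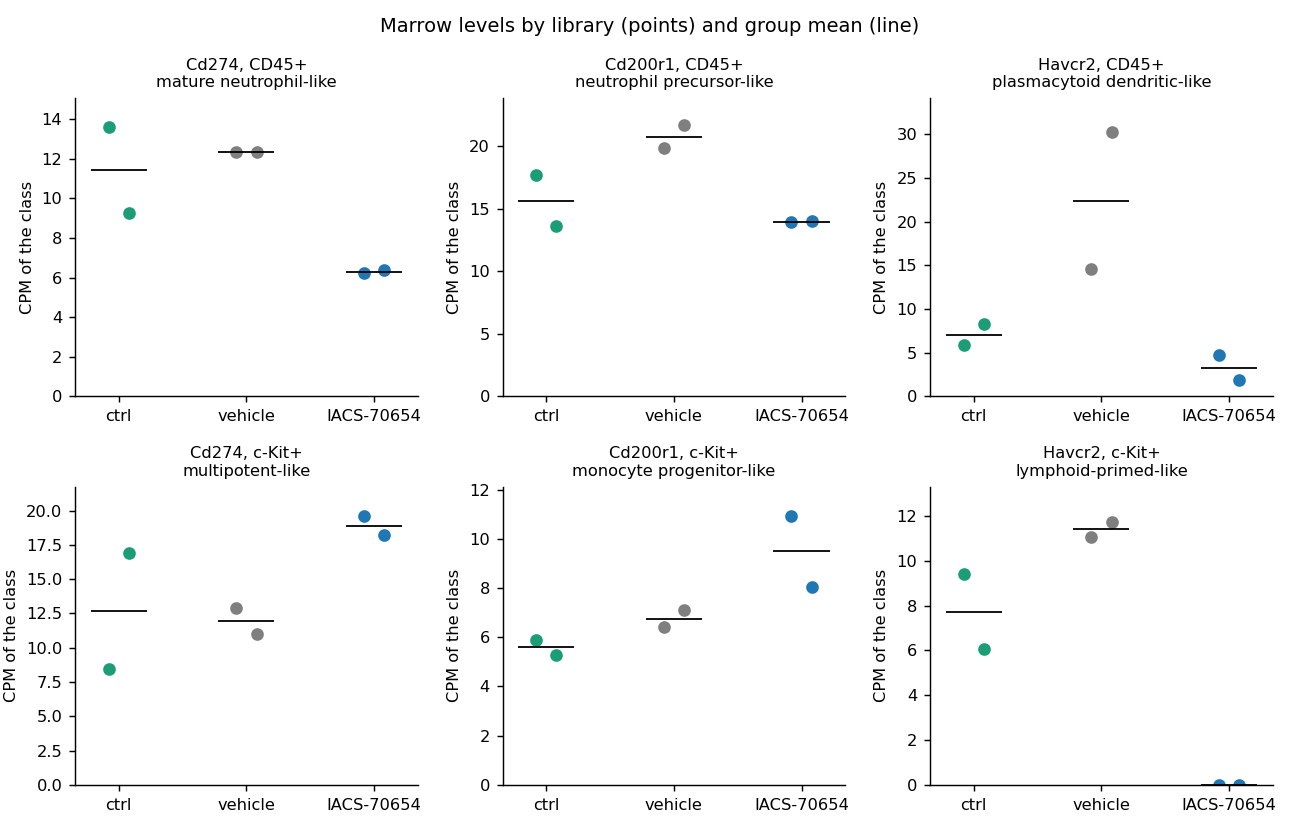
The 6 class and gene pairs called between IACS-70654 and vehicle in marrow, as CPM of the class (vertical axis) with 1 point per library and a line at the group mean (n = 2). In each panel the IACS-70654 libraries lie outside the range of the vehicle libraries; Havcr2 was at 0 UMIs in both IACS-70654 libraries of lymphoid-primed-like cells.

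The remaining members gave no call in marrow. Cd200 in multipotent-like cells was at 2.12 and 3.08 CPM in vehicle and 5.27 and 5.19 in IACS-70654, without overlap, and missed the threshold (1.09, SE 0.364, edgeR adjusted p = 0.0161). In plasmacytoid dendritic-like cells, its main marrow class, Cd200 gave 45.1 and 18.1 against 33.9 and 30.8 CPM (0.03, edgeR adjusted p = 0.983). Lag3 in basophil or mast progenitor-like cells was at 11.6 and 14.4 CPM in ctrl, 17.3 and 20.1 in vehicle and, with IACS-70654, 8.91 and 10.8 (-1.03, edgeR adjusted p = 0.0214). In CD45+ basophil or mast-like cells Lag3 was at 18.4 and 26.2 CPM in ctrl, 32.3 and 22.0 in vehicle and, with IACS-70654, 2.24 and 8.63 from 1 and 5 UMIs (-2.23, edgeR adjusted p = 0.0627). Ctla4 in T or NK-like cells was at 38 and 64.3 CPM in vehicle and 99.1 and 91 in IACS-70654 (0.84, edgeR adjusted p = 0.599).

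Binding partners and other inhibitory genes were compared in the same marrow classes by the same edgeR test, and most did not pass. In mature neutrophil-like cells 1 of 7 partners rose (Cd86, 0.86), beside 23.2% of all genes called, and of 11 other inhibitory genes 1 rose (Cd48, 0.93) and 3 fell, among them the CD48 receptor gene Cd244a (-1.14). By class total Cd86 was at 1.03, Cd48 at 1.10 and Cd244a at -0.97, all called, 3 of 7 partners rose, and 1 of the 11 other inhibitory genes fell. Of 10 genes of the interferon gamma route 0 rose and 3 fell there under TMM (Irf1 -0.70, Jak1 -0.55, Ifngr2 -0.52). By class total 1 of the 10 fell, Irf1 at -0.52, so the calls of Jak1 and Ifngr2 rested on the scaling. In precursor-like cells the receptor gene Ifngr1 rose by 1.34 on the log2 scale (1.63 by class total), and the partner gene Lgals3 fell (-1.08, and -0.78 by class total), beside 24% of all genes called. In c-Kit+ lymphoid-primed-like cells, where Havcr2 was at 0 UMIs in both IACS-70654 libraries, its ligand gene Lgals9 fell as well (-0.84, and -0.78 by class total), as it did in erythroid-like cells (-1.17, and -1.19).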

How the data were processed

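4 tumor libraries and 12 marrow libraries of single cells were analysed. The authors deposited raw UMI counts per gene and barcode, made with Cell Ranger (7.1.0 for tumors and 7.2.0 for marrow, per the file headers) on mm10. Per the labels, samples were multiplexed and read from the 3′ or the 5′ end, without saying which library was which; the methods name a 3′ kit.

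Barcodes with at least 200 and under 6000 genes and at most 10% mitochondrial UMIs were kept. Each sort was clustered with scanpy 1.11.5 (2000 variable genes, 30 components, 20 neighbours, Leiden resolution 1), leaving out the 9 genes and 5 lists of related genes, and clusters were named from marker lists. T or NK-like and dendritic-like sub-clusters with leading myeloid genes were set aside. Doublets were scored with Scrublet and kept in the main values. CPM were computed here from class sums. Tumor class ratios and marrow values needed at least 20 cells of the class in a library, whereas tumor levels were also given for smaller classes and sub-clusters. Marrow sums were tested with edgeR 4.0.16 (filterByExpr, TMM, 1 fit over the 3 groups of a sort), with DESeq2 1.42.0 as an alternative. On simulated counts with 200 genes changed by 1 (log2), edgeR recovered 79% in mature neutrophil-like cells and 82% in monocyte progenitor-like cells. All 9 genes were named by rule, and of each context list the called genes with the largest change. The members and lists were chosen with earlier results of these data known. Replicate libraries had a chi-square per gene of 1.10 to 4.65 (median 1.22) over 39 class pairs, where counting noise alone gives about 1. None was counted as a duplicate. Values near 1 cannot tell separate pools of mice from parts of 1 pool. Some values of the context lists are not reported here.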

Additional observations from a re-analysis of the deposited data

Results flagged for a closer look

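2 genes were set apart because, between IACS-70654 and vehicle, both libraries of one marrow class moved one way and both libraries of another class the opposite way. Cd200r1 was changed by 0.56 (log2) in c-Kit+ monocyte progenitor-like cells and by -0.87 in CD45+ neutrophil precursor-like cells. Cd274 was changed by 0.61 in c-Kit+ multipotent-like cells and by -1.14 in CD45+ mature neutrophil-like cells. The difference between classes was not tested, since the classes come from different sorts and were fitted apart.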

How the results depend on the processing

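Of the marrow calls, Cd274 in mature and Cd200r1 in precursor neutrophil-like cells between IACS-70654 and vehicle kept direction and call in every alternative run over the whole class. DESeq2 gave 0 calls for vehicle against ctrl in the CD45+ sort (edgeR 1) and 0 for IACS-70654 against vehicle in the c-Kit+ sort (edgeR 3), and 2 for IACS-70654 against vehicle in the CD45+ sort (edgeR 3). Havcr2 in lymphoid-primed-like and plasmacytoid dendritic-like cells had no adjusted p there. Class total scaling gave 0 for vehicle against ctrl in the CD45+ sort. Without a count filter the c-Kit+ count was 5. Leaving out 1 library gave 0 to 1, 2 to 4, 0 to 0 and 0 to 5 calls for CD45+ vehicle, CD45+ IACS-70654, c-Kit+ vehicle and c-Kit+ IACS-70654. The stricter cell filter lost Havcr2 in plasmacytoid dendritic-like cells (adjusted p 0.0228, edgeR) and Cd200r1 in monocyte progenitor-like cells (0.0298). Of 11 class pairs 8 passed at Leiden resolution 2 (0 at resolution 1), where the pairs with B-like cells had more libraries and the adjustment over all pairs changed with them. Of the tumor ratios past the fold, Cd274 in epithelial-like cells for IACS-70654 over vehicle turned to -0.17 without cluster 16, and Ctla4 for the combination over anti-PD1 to -0.0203 with the cells that carry myeloid genes. Pdcd1 in T or NK-like cells for IACS-70654 over vehicle turned to -0.0925 with those cells and to -0.180 without the naive or memory T-like sub-cluster. Of 290 alternatives of these ratios 278 kept direction and stayed within the counting interval, 8 moved out of it and 4 turned. Most were reruns on nearly the same cells. Where the cells of a class were changed, fewer held. With the cells that carry myeloid genes 2 held, 1 moved and 2 turned. Without the naive or memory T-like sub-cluster these were 2, 2 and 1, and without cluster 16 they were 3, 1 and 1. Without cluster 10, 1 held and 1 moved, and without cluster 7 all 5 held. Same-numbered libraries share only a number, with correlations of their deviations from -0.0933 to 0.0961 over 54 pairs of groups. The fit with the replicate block gave 1, 3, 0 and 3 calls, and kept 9 of 9 named results on their side of the threshold. The cause of these changes was not tested. Depth limited Pdcd1, Tigit and Pdcd1lg2 in tumors and Havcr2 in marrow, and 1 library per tumor condition left no measure of the spread between tumors.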
